A study of Mus musculus with 9 samples.

Results

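The genes described here are 10 genes of the oligodendrocyte lineage, chosen by symbol out of 38898 genes in a table of RNA counts from mouse hippocampus. The precursor members are C1ql1 and Cspg4. Bcas1, Cnp, Ermn, Hapln2 and Opalin belong to cells that form or maintain myelin, and Olig1, Olig2 and Sox10 encode transcription factors that are present through the lineage. All 10 were found in the table and all 10 passed the filter on low counts. The libraries came from adult BALB/c mice in 3 groups of 3. CTL is the sham operation, SAE had only the operation CLP, in which the cecum is tied and punctured so that gut bacteria cause sepsis, and CCLF is CLP plus flavonoids of Cuscuta chinensis at 200 mg/kg. The sources used here give no age in weeks, sex or time from surgery to sampling.

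Oligodendrocytes wrap axons in myelin, a stack of membrane held together by dedicated proteins and rich in cholesterol and galactolipids. They arise from precursor cells that carry the NG2 proteoglycan, persist in the adult brain and divide in response to platelet-derived growth factor. On differentiation a precursor passes through a short premyelinating stage and then switches on the myelin genes under the control of SOX10 and its partners. In the hippocampus myelin is densest in the fimbria and alveus.

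Each library held 4626519 to 4895474 counts, and Slc17a7, the vesicular glutamate transporter gene of hippocampal excitatory neurons, had 26508 to 30405 counts in every library. Lcn2, an acute-phase gene that infection raises in brain, had 13246 to 14822 counts in the CTL libraries, 6 to 14 in the SAE libraries and 4524 to 9635 in the CCLF libraries. This order goes against the group labels, so groups are called by their labels throughout and a direction is a difference between labels. The CCLF libraries also stood apart in their spread. Among genes with a mean of at least 50 counts, the ratio of variance to mean over the 3 libraries had a median of 0.732 in CCLF. It was 1.49 in CTL and 1.47 in SAE. Counting alone gives a mean ratio of about 1, and over 3 libraries a median below that, so 0.732 by itself is not under counting error. For genes that did not pass the test between SAE and CTL that median was 0.125 in CCLF, 1.26 in CTL and 1.44 in SAE. The CCLF value is less than counting error alone would give. For genes that passed, the median was 2.47 in CCLF, 1.77 in CTL and 1.49 in SAE. Why the CCLF libraries differ in this way was not tested. CCLF values are therefore given as a description, with no test.

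The 250 bases before the start of 4 members are shown to place genes that rose beside a gene that fell, and a precursor gene beside myelinating genes. They are from RefSeq on GRCm38.p6, whose promoter table held 6 of the 10 members. Entries for Bcas1, C1ql1, Olig1 and Sox10 were not used here. The build behind the counts is not given in the sources used here. Capitals mark the SOX core ACAAAG or ACAATG and the E-box CAGCTG or CAGATG, searched on both strands, and no match overlaps another. The windows are chr2:58052865-58053114 on the minus strand for Ermn, chr19:41077114-41077363 on the minus strand for Opalin, chr3:88027512-88027761 on the minus strand for Hapln2 and chr9:56864854-56865103 on the plus strand for Cspg4, each outside its RefSeq gene body, written 5′ to 3′ in the direction of transcription.
Ermn: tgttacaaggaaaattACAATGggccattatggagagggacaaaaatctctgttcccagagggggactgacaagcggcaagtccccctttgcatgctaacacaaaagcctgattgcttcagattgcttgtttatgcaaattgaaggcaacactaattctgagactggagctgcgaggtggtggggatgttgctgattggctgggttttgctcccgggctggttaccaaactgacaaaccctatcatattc
Opalin: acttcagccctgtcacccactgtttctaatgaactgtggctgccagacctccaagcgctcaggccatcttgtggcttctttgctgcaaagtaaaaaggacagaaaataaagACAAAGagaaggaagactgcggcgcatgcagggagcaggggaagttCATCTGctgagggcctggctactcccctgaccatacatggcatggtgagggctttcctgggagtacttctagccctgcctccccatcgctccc
Hapln2: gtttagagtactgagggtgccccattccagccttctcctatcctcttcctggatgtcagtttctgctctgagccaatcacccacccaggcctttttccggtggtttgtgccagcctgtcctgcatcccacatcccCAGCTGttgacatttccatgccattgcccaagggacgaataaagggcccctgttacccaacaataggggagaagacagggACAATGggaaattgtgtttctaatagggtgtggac
Cspg4: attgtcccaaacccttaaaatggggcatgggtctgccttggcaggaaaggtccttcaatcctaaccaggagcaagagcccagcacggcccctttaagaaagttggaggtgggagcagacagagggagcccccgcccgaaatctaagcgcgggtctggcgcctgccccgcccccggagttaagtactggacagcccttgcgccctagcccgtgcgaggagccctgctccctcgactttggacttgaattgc
A SOX core lies 234 bases before the start of Ermn, 139 before that of Opalin and 35 before that of Hapln2. Cspg4 has neither motif in this window. Either SOX core was present in 5 of the 6 members with an entry and in 25.2% of 32851 promoter windows, and either E-box in 2 of the 6 and in 25.5% of the windows. The motifs occur before genes that rose and before a gene that fell, and a match is a description of the letters only.

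Of the 10 members, 8 rose and 2 fell in the libraries labelled SAE against CTL by the quasi-likelihood test of edgeR, with p-values adjusted over all tested genes (Benjamini-Hochberg). Among all 8213 tested genes 47.6% were called, 23.7% higher and 23.9% lower in SAE. The SAE and CTL libraries did not overlap in 9 of the 10 members, and did not overlap in 55.7% of all tested genes. The median log2 fold was 0.91 over the members and 0.00 over all tested genes. Precursor, transcription factor and myelinating members were all among those that rose, and both that fell, Bcas1 and Hapln2, were of the myelinating group. In bulk tissue, fewer cells of a type and less RNA per cell cannot be told apart.

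**Figure D1:**
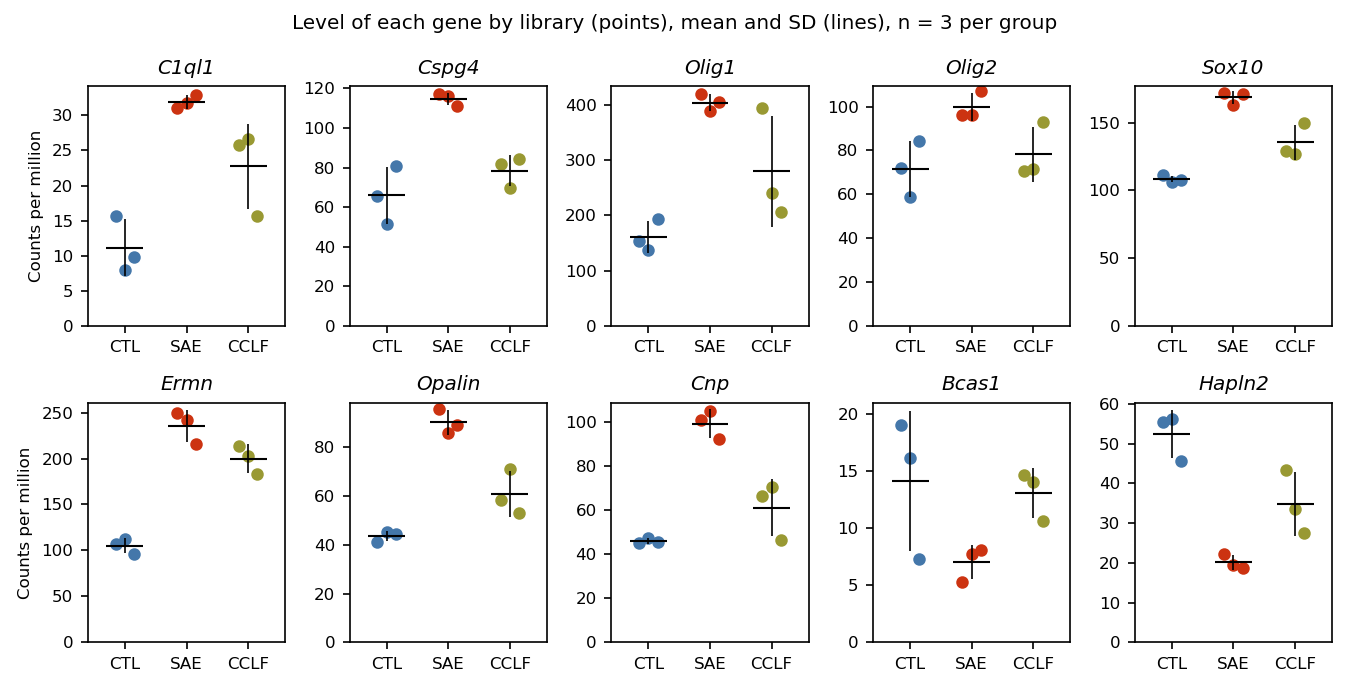
Counts per 1000000 normalized counts (CPM) of each of the 10 genes in each library (points), by group label, with the mean and SD over 3 libraries (lines). The CTL and SAE points are separate in every panel except Bcas1, and in 8 of 10 panels all 3 CCLF points lie between the CTL and SAE means. The share of all tested genes with CCLF between is not given here.

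The precursor genes rose. Cspg4 encodes NG2, the surface proteoglycan by which these cells are recognised, although pericytes also express it. Its counts were 301, 247 and 387 in CTL replicates 1 to 3 and 550, 540 and 537 in SAE. Every SAE library was above every CTL library, and the SAE libraries were close together while CTL replicate 2 was low. In CPM, with library sizes normalized, Cspg4 rose from 66 ± 14.5 to 115 ± 3.02 (mean ± SD, n = 3; log2 fold 0.78 ± 0.12 SE, adjusted p = 0.000258 by edgeR). C1ql1 encodes a secreted C1q-like protein that within glia marks precursor cells and that some neurons also make. Its counts were 72, 38 and 47 in CTL and 146, 148 and 159 in SAE. The groups were again separate, with CTL replicate 1 the highest of its group. C1ql1 rose from 11.2 ± 4.07 to 31.9 ± 0.966 CPM, which was the highest fold of the 10 genes (log2 fold 1.51 ± 0.18, adjusted p = 5.67e-07 by edgeR). The CCLF libraries had 385, 328 and 397 counts of Cspg4, within or just above the CTL range, and 122, 126 and 74 counts of C1ql1. Replicates 1 and 2 of C1ql1 lay between the groups and CCLF replicate 3 was at the upper end of CTL.

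The transcription factor genes rose by unequal amounts. OLIG2 is a basic helix-loop-helix factor that specifies the lineage and is kept in both precursors and mature cells, and OLIG1 is its close relative, which acts in differentiation and repair of myelin. The genes lie 41091 bases apart on chromosome 16 in the RefSeq annotation of GRCm38.p6. Olig1 counts were 706, 658 and 929 in CTL and 1982, 1811 and 1960 in SAE. Every SAE library was far above every CTL library. Olig1 rose from 162 ± 28.8 to 405 ± 15.9 CPM (log2 fold 1.31 ± 0.12, adjusted p = 0.000191 by edgeR). Olig2 counts were 329, 282 and 405 in CTL and 454, 448 and 517 in SAE. The gap between the groups was narrow for this gene, since CTL replicate 3 came close to the SAE libraries. Olig2 rose from 71.7 ± 12.7 to 99.8 ± 6.2 CPM (log2 fold 0.47 ± 0.1, adjusted p = 0.00122 by edgeR).

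The ratio of Olig1 to Olig2 counts within a library shows this inequality without scaling between libraries. It was 2.15, 2.33 and 2.29 in CTL and 4.37, 4.04 and 3.79 in SAE. The groups were separate, and no CTL library reached the lowest SAE library. In CCLF the ratio was 5.58, 3.34 and 2.22, from above every SAE library to within the CTL range. Olig1 counts ran from 971 to 1859 there and Olig2 counts from 333 to 438. These are ratios of counts with no correction for transcript length, so only their change between libraries can be read.

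Sox10 encodes the factor that drives myelin gene transcription and is also present in precursors. Its counts were 508, 509 and 518 in CTL, 810, 759 and 829 in SAE and 611, 600 and 710 in CCLF. The 3 groups did not overlap, with CCLF between the others, and CTL libraries were nearly equal. Sox10 rose from 108 ± 2.39 to 169 ± 5.08 CPM (log2 fold 0.63 ± 0.06, adjusted p = 1.31e-08 by edgeR).

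Among the myelinating members Ermn, Opalin and Cnp rose by similar folds. Ermn encodes ermin, a cytoskeletal protein of the myelin sheath that appears late in maturation. Its counts were 488, 539 and 461 in CTL and 1172, 1130 and 1042 in SAE. All SAE libraries were far above all CTL libraries. Ermn rose from 105 ± 8.36 to 236 ± 17.6 CPM (log2 fold 1.15 ± 0.07, adjusted p = 1.63e-12 by edgeR). Opalin encodes a transmembrane glycoprotein of central myelin. Its counts were 188, 217 and 212 in CTL and 450, 399 and 431 in SAE, again with a wide gap. Opalin rose from 43.5 ± 2.19 to 90.1 ± 4.99 CPM (log2 fold 1.04 ± 0.09, adjusted p = 1.07e-09 by edgeR). Cnp encodes the myelin enzyme CNPase, which keeps cytoplasmic channels open in the sheath. Its counts were 206, 227 and 219 in CTL and 475, 488 and 446 in SAE. Cnp rose from 46 ± 1.24 to 99.2 ± 6.36 CPM (log2 fold 1.1 ± 0.09, adjusted p = 2.04e-10 by edgeR).

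These 3 genes diverged in the CCLF libraries. Ermn had 1009, 956 and 865 counts, near the SAE libraries, and its mean of 200 ± 15.4 CPM lay 72.7% of the way from the CTL mean to the SAE mean. Opalin had 275, 335 and 249 counts, or 36.9% of the way. Cnp had 313, 334 and 220 counts, or 28.6% of the way, and CCLF replicate 3 was within the CTL range. Relative to Ermn counts, Cnp counts were 42.1% to 47.5% in CTL, 40.5% to 43.2% in SAE and 25.4% to 34.9% in CCLF. The ratio of these myelin genes thus overlapped between CTL and SAE and was lower in all 3 CCLF libraries.

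Hapln2 went the other way. It encodes a link protein of the hyaluronan matrix that oligodendrocytes deposit around nodes of Ranvier. Its counts were 254, 269 and 219 in CTL, 105, 91 and 90 in SAE and 205, 158 and 130 in CCLF. The 3 groups did not overlap, in the reverse order to Ermn. Hapln2 fell from 52.4 ± 5.9 to 20.1 ± 1.9 CPM (log2 fold −1.39 ± 0.13 SE), with adjusted p = 2.19e-09 by edgeR. Hapln2 counts were 47.5% to 52% of Ermn counts in CTL and 8.05% to 8.96% in SAE, and 15% to 20.3% in CCLF. Both genes are markers of mature oligodendrocytes, and their counts changed in opposite directions.

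Bcas1 encodes a protein that marks premyelinating and newly myelinating cells and remains in myelin. Its counts were low, at 87, 77 and 35 in CTL, 25, 36 and 39 in SAE and 69, 66 and 50 in CCLF. CTL replicate 3 lay within the SAE range, so the groups overlapped. Bcas1 fell from 14.1 ± 6.1 to 7.03 ± 1.51 CPM (log2 fold −1.01 ± 0.33 SE), with adjusted p = 0.0247 by edgeR. This call was lost on leaving out CTL replicate 1 or 2 or any SAE replicate (adjusted p = 0.0659 to 0.102), and without CTL replicate 3 the log2 fold was −1.33 (adjusted p = 8.63e-06).

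**Figure D2:**
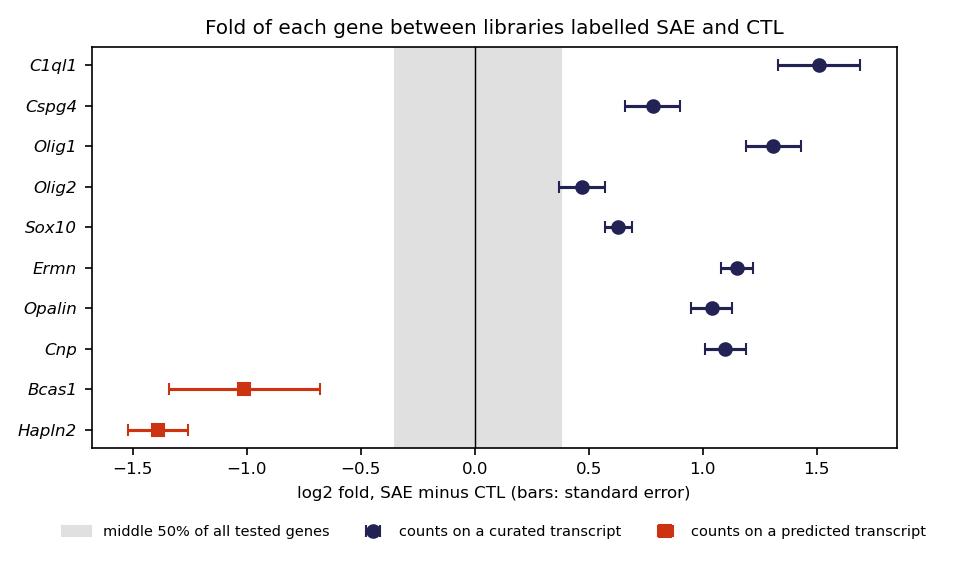
Log2 fold of each gene, SAE minus CTL, with its standard error (bars), ordered by role from precursor to myelinating. The grey band holds the middle 50% of all tested genes (−0.35 to 0.38). Round points are genes whose counts lie mainly on a curated transcript and squares those on a predicted one, and both squares lie below 0.

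The table counts RefSeq transcripts, and the genes differ in how many they have. Of the 10 members 7 have a single transcript, and all 7 rose. Among the 4776 tested genes with a single transcript 25% rose and 29.3% fell. Hapln2 and Bcas1 are the members whose counts lie on a predicted transcript model. For Hapln2, which has 2 transcripts, the curated model had 0 to 3 counts per library and the predicted model all others. For Bcas1, which has 15, a single predicted model held all counts and the other 14 had 0 in every library. Cnp has 4, and its curated leading model carried 187, 216 and 198 counts in CTL and 461, 471 and 441 in SAE, while a predicted model had 11 to 19 in CTL and 3 to 16 in SAE. Among all tested genes led by a predicted model, 22.7% rose and 18.6% fell (n = 2229), against 24.1% and 25.9% of genes led by a curated model (n = 5984). These shares are over whole classes of genes and say nothing about Hapln2 or Bcas1 singly. Whether the folds of Hapln2 and Bcas1 stand for the whole gene was not tested.

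Precursor and myelinating stages were compared as sums within each library. The summed level of C1ql1 and Cspg4 was 81.5, 59.5 and 90.4 CPM in CTL, 148, 148 and 144 in SAE and 107, 96.2 and 99.8 in CCLF. The summed level of the 5 myelinating members was 267, 277 and 239 CPM in CTL, 472, 460 and 424 in SAE and 396, 392 and 321 in CCLF. Both sums were higher in every SAE library than in every CTL library, by a ratio of means of 1.9 and 1.73, with CCLF between. Ermn makes up much of the second sum and Cspg4 most of the first. The transcription factor genes summed to 342 ± 41.8 CPM in CTL and 673 ± 22.4 in SAE (ratio 1.97) and to 494 ± 86.8 in CCLF.

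Relative to the myelinating sum, the precursor sum was 30.5%, 21.4% and 37.9% in CTL and 31.3%, 32.1% and 34% in SAE. The SAE values lay inside the CTL range, so no shift between stages exceeded the spread of the libraries on this scale. In CCLF it was 27.1%, 24.6% and 31.1%. Averaged as log2 CPM, where each gene counts equally, the precursor members differed by 1.20 and the myelinating members by 0.21 between SAE and CTL, since Hapln2 and Bcas1 fell. On that scale the groups did not overlap. The precursor mean minus the myelinating mean was −0.52, −1.20 and −0.38 in CTL and 0.29, 0.26 and 0.32 in SAE. For Cnp, Ermn and Opalin alone, a set chosen after their values were seen, that difference was 1.11. No test was made of these sums.

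**Figure D3:**
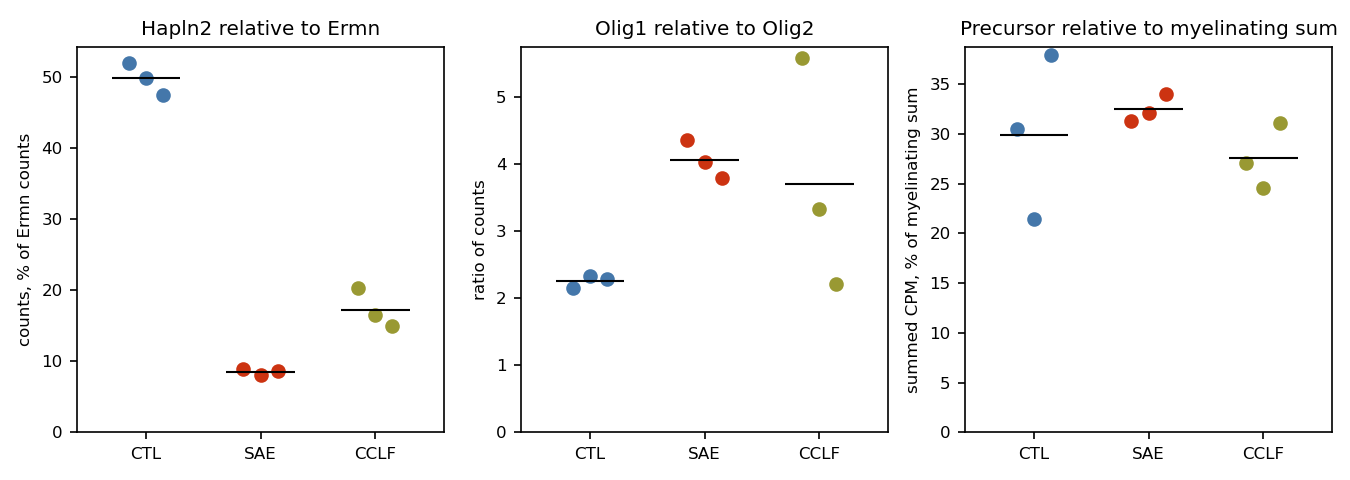
Ratios within each library (points) by group label, with the group mean (lines): Hapln2 counts as a percent of Ermn counts, the ratio of Olig1 to Olig2 counts, and summed precursor CPM as a percent of summed myelinating CPM. The first 2 ratios separate CTL from SAE, and in the third the SAE points lie within the CTL range of 21.4% to 37.9%.

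Other genes of the lineage were taken from lists that overlap with the members, and many could not be tested. Over all 17 lists, markers of other cells included, 147 of 301 genes in the table had too few counts to test, and 141 of these 147 have several RefSeq transcripts. Mbp and Mag, myelin genes with 17 and 14 transcripts, had 0 to 4 and 1 to 3 counts per library. Pdgfra, the receptor gene by which precursors sense platelet-derived growth factor, had 1 to 12 counts over its 8 transcripts. The absence of these genes from the counts below says nothing about their level in the tissue.

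Precursor genes were called higher in 7 and lower in 1 of 9 tested, with a median log2 fold of 0.78. The lower call, of Ugdh, was lost by DESeq2, with no filter and without CTL replicate 1 or 2 or any SAE replicate. Cacng4, an AMPA receptor auxiliary subunit gene of precursors, rose from 55.3 ± 2.2 to 114 ± 1.73 CPM (log2 fold 1.03 ± 0.08, adjusted p = 1.2e-10 by edgeR). Xylt1, whose enzyme starts glycosaminoglycan chains on proteoglycans, rose by a log2 fold of 0.77 ± 0.08. Gpr17, a receptor gene of committed precursors that holds back maturation, rose from 2.19 ± 1.26 to 7.74 ± 0.816 CPM (1.8 ± 0.33). Without C1ql1 and Cspg4 the list had 5 higher and 1 lower of 7.

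Genes of newly formed oligodendrocytes did not lean higher. Of 7 tested, 1 rose and 3 fell, with a median log2 fold of −0.07. Gpr17, also on the precursor list, was the gene that rose, and Bcas1, Nfasc and Tmem163 fell. The number lower was 1 without CTL replicate 2 and 2 without CTL replicate 1 or any SAE replicate, and the Bcas1 call was lost in 5 of the 6 fits with a library left out. Of the 7 genes, 2 were led by a predicted transcript, and both fell. With genes led by a predicted transcript removed, 1 rose and 1 fell of 5. Nfasc, the neurofascin gene of nodes and paranodes, fell from 45 ± 3.64 to 19.9 ± 1.94 CPM (log2 fold −1.18 ± 0.13 SE), with adjusted p = 3.64e-08 by edgeR. It has 42 RefSeq transcripts and is also made by neurons. Tmem163, which encodes a zinc transporter, fell by 0.31 ± 0.1 on the log2 scale. Enpp6, a marker of this stage, was not tested, with at most 1 count in any library.

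Myelin structure genes were called higher in 11 and lower in 4 of 16 tested, with a median log2 fold of 0.49. With genes led by a predicted transcript removed, 10 rose and 2 fell of 13. Pllp, the plasmolipin gene, rose from 52 ± 3.28 to 188 ± 9.73 CPM (log2 fold 1.84 ± 0.07, adjusted p = 5.22e-16 by edgeR). Mog, which encodes a glycoprotein on the outermost myelin layer, rose from 45.4 ± 4.86 to 116 ± 11.2 CPM (1.34 ± 0.09). Outside the members, 8 rose and 3 fell of 12. Other genes of mature oligodendrocytes were higher in 11 and lower in 3 of 19, with a median of 0.59. Among them Ppp1r14a, a phosphatase inhibitor gene, rose by 1.39 ± 0.15, Qdpr, of tetrahydrobiopterin recycling, by 0.87 ± 0.04, Gltp, of glycolipid transfer, by 0.54 ± 0.07 and Gpr37, a receptor gene that restrains maturation, by 0.49 ± 0.05.

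Myelin needs lipid as well as protein, and genes of sphingolipid and cholesterol synthesis were also called higher. Of 10 tested, 8 rose and 0 fell, with a median log2 fold of 0.54. Sptlc2, a subunit of the enzyme that starts sphingolipid synthesis, rose from 74.2 ± 6.49 to 164 ± 10.2 CPM (log2 fold 1.13 ± 0.08, adjusted p = 9.5e-12 by edgeR). The sterol enzyme genes Sc5d and Sqle rose by log2 folds of 1.21 ± 0.09 and 0.54 ± 0.06. Ugt8a, whose enzyme makes galactosylceramide of myelin, was not tested, with at most 1 count in any library. Other brain cells make cholesterol too, so the list does not belong to oligodendrocytes alone.

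Transcription regulators of the lineage were higher in 11 and lower in 4 of 16 tested, with a median of 0.59, and without the 3 members in 8 and 4 of 13. Klf9, a target of thyroid hormone and glucocorticoids, fell from 1638 ± 105 to 927 ± 48.9 CPM (log2 fold −0.83 ± 0.05 SE), with adjusted p = 4.78e-11 by edgeR. Sox9, which astrocytes also express, fell by 0.62 ± 0.07, and Zfp365, a zinc finger gene, rose by 0.33 ± 0.04. Myrf, Tcf7l2, Sox5 and Sox6, which have 9 to 55 transcripts each, had 0 counts in every library. Such zeros say nothing about the level of these genes in the tissue. These names were chosen after their values were seen.

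Growth signals were mixed, with 6 higher and 4 lower of 13 tested (median 0.31). Fgf2, a mitogen of precursors that astrocytes release, fell from 94.9 ± 18.5 to 17.1 ± 1.16 CPM (log2 fold −2.48 ± 0.14 SE), with adjusted p = 2.94e-11 by edgeR. Egfr and Notch1, receptor genes that keep precursors immature, fell by 0.71 ± 0.12 and 0.69 ± 0.06. Cxcl12, a chemokine gene that guides precursors, rose by 0.85 ± 0.07. Genes that oligodendrocytes raise in inflammation, which other cells raise too, had 0 higher and 4 lower of 6 tested (median −1.46). Psmb8, of the immunoproteasome, fell from 149 ± 12.1 to 11.3 ± 1.19 CPM (log2 fold −3.73 ± 0.11), and H2-D1, B2m and Nupr1 fell by 2.52 ± 0.06, 1.59 ± 0.05 and 1.34 ± 0.15. Serpina3n and C4b, leading genes of that state, had 0 to 1 and 0 to 2 counts per library. They have 2 and 4 transcripts, and these counts say nothing about their level in the tissue.

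**Figure D4:**
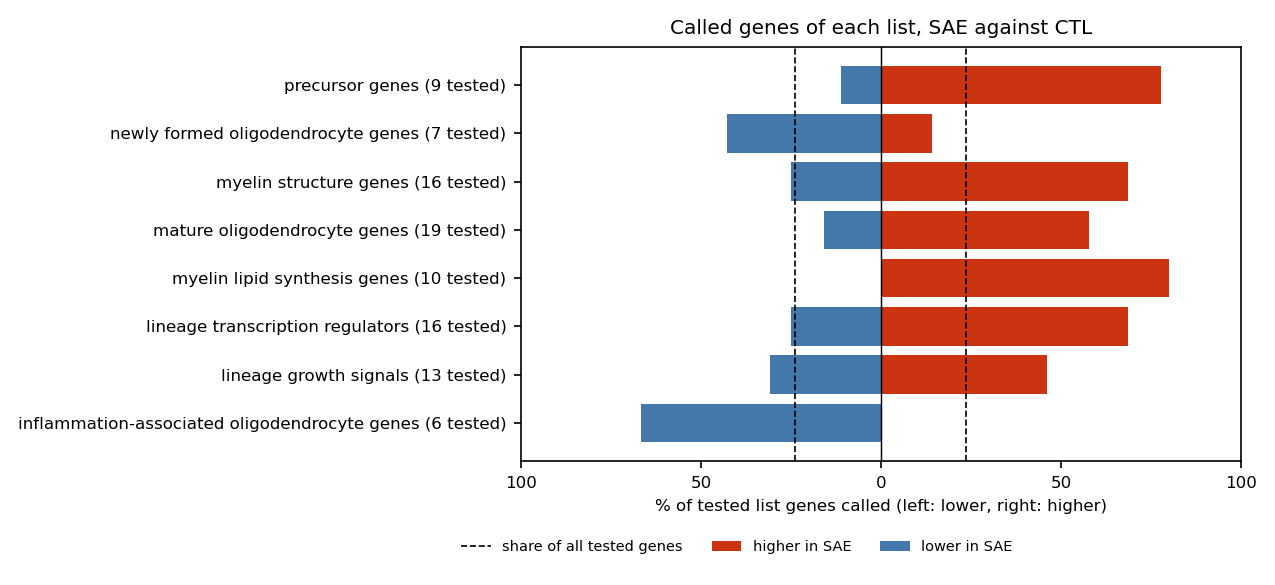
Share of the tested genes of each lineage list that were called higher (right) or lower (left) in SAE against CTL. Dashed lines mark the shares over all tested genes, 23.7% higher and 23.9% lower. To the right, the bars of the precursor, myelin, mature, lipid, regulator and growth signal lists pass the line. To the left, those of the newly formed, growth signal, inflammation, myelin and regulator lists pass it, the last pair by little.

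Markers of several other cell types also differed between the labels, some higher and some lower in SAE, and their part in the results was not tested. Among all tested genes 23.7% were called higher and 23.9% lower. Neuron markers were higher in 7 and lower in 0 of 10 tested, and their summed level was 15364 to 15862 CPM in CTL and 17606 to 18179 in SAE. Endothelial and pericyte markers were higher in 4 and lower in 1 of 6, with sums of 613 to 653 and 912 to 1026 CPM. Microglia markers were higher in 6 and lower in 1 of 8 (2 lower without CTL replicate 2 or 3, with replicate number as a block and by 3 other alternatives), with sums of 813 to 1137 and 1012 to 1101. The neuron and vascular sums were separate between the groups and higher in SAE, whereas the microglia sums overlapped. Sums of the lineage lists differed by list. Those of the precursor, myelin structure, mature and lipid lists were separate and higher in SAE. Those of the newly formed, regulator and inflammation lists were separate and lower, and growth signal sums overlapped.

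Astrocyte markers were higher in 3 and lower in 6 of 10, with overlapping sums of 3722 to 3977 CPM in CTL and 3887 to 3932 in SAE. Choroid plexus and ependymal markers were higher in 2 and lower in 0 of 7, with overlapping sums of 573 to 897 CPM in CTL and 779 to 1550 in SAE. The number higher was 4 with DESeq2, with all 9 libraries or without CTL replicate 1, and 6 with limma-voom or with replicate number as a block. Meningeal markers were higher in 4 and lower in 0 of 10 (357 to 419 and 318 to 550), with 1 lower by DESeq2, by limma-voom or without SAE replicate 2. Markers of neighbouring regions had 2 higher and 1 lower of 3 (92.7 to 103 and 72.7 to 75.3), and blood markers 0 and 3 of 5 (624 to 649 and 461 to 571). Schwann cell markers, which would come with peripheral nerve, had 1 higher (Mal, also a myelin gene of oligodendrocytes) and 1 lower (Cdh19) of 5 and sums of 262 to 285 and 266 to 286 CPM. The number higher was 0 by DESeq2, with no filter and without CTL replicate 2 or 3 or SAE replicate 1 or 2, and 2 without SAE replicate 3. Among their defining genes Pmp22, which has 9 transcripts, had 0 counts in every library, which says nothing about its level in the tissue.

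The CCLF libraries lay between the CTL and SAE means for most values, as a description. All 3 CCLF values were between those means in 8 of the 10 members, the exceptions being Bcas1 and Olig2. The share of all tested genes with CCLF between, or with 3 separate groups, is not given here. Whether either pattern is particular to the members therefore cannot be read, and Lcn2, outside the lineage, had CCLF counts between the other groups too. The CCLF mean lay from 14.9% (Bcas1) to 72.7% (Ermn) of the way from CTL to SAE. For Sox10, Ermn, Opalin and Hapln2 the 3 groups did not overlap at all, while for Cspg4, Olig2, C1ql1, Cnp and Bcas1 the CCLF and CTL libraries overlapped. Olig1 had the widest spread within CCLF, 206 to 394 CPM, with replicate 1 inside the SAE range and replicates 2 and 3 between the groups. The ratio of variance to mean over the CCLF libraries was 1.64 to 169 among the members, against a median of 2.47 over called genes averaging 50 counts or more.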

How the data were processed

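The authors deposited a table of whole-number counts for 120312 RefSeq transcripts in 9 hippocampus libraries (ribosomal RNA depleted, per the labels' protocols). Per the submitters' processing notes, fastp and Salmon were used. Versions, settings, index, build and the treatment of reads shared by transcripts were not given in the sources used here. Of the transcripts 120299 were matched to symbols with the RefSeq table of GRCm38.p6, used for names, promoters and gene positions, and the others had 0 counts. Counts were summed to 38898 genes.

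The 3 CTL and 3 SAE libraries were fitted with edgeR 4.0.16 (filterByExpr, trimmed mean of M values, robust quasi-likelihood F test), which tested 8213 genes. Calls needed a Benjamini-Hochberg adjusted p-value below 0.05 over those genes. The SE of a log2 fold is its size divided by the square root of F. CPM used factors from all 9 libraries. The labels describe replicates as biological. At these totals counting error limits genes with few counts. In simulated counts with the library totals of this comparison, 7948 genes were tested. Of these, 90% of 90 genes changed 2-fold and 100% of 94 changed 4-fold were recovered, with 7 false calls. The simulation gave all genes the same low dispersion and changed few of them. Its figures therefore do not carry over to genes with a wider spread within a group, or to data where many genes differ.

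The members and lists were chosen with earlier results of these data known. Named genes are the 10 members, up to 4 genes with the smallest p-values of each lineage list, list genes or markers standing first in their list, and the 3 genes most correlated with each of Ermn and Cspg4. Genes named outside this rule, chosen after their values were seen, are Lcn2, Mal, Cdh19, Ugdh, Myrf, Tcf7l2, Sox5 and Sox6. Alternatives were relative log expression scaling, the DESeq2 1.42.0 Wald test, limma 3.58.1 voom, other filters, all 9 libraries, replicate number as a block, the most counted transcript only, genes with 1 transcript, thinning, each library left out, and, chosen after seeing the data, removal of genes led by a predicted transcript and of Hapln2 and Bcas1 from the stage average. R 4.3.3 and Python 3.11.15 were used.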

Additional observations from a re-analysis of the deposited data

How the results depend on the processing

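All members except Bcas1 kept their direction and their call under every alternative that tested them, Hapln2 with log2 folds of −1.49 to −1.33 and Ermn with 1.09 to 1.22. Over all genes, 3912 were called, and 2565 (1281 higher, 1284 lower) when only the 4776 tested genes with 1 transcript were fitted, which tests fewer genes. Same-numbered CTL and SAE libraries did not deviate together (r = −0.02 to 0.03 over genes), so no pairing by number was seen. Counting error enters these deviations, so a value near 0 cannot exclude a pairing. With replicate number as a block (replicate block) 3892 genes were called, and no member's call changed. The 2 members called lower became 0 among genes with 1 transcript and 0 without genes led by a predicted transcript, since both drop Bcas1 and Hapln2. With 1 library left out that number was 1 to 2. The log2 ratio of precursor to myelinating sums, SAE minus CTL, was 0.15 with an SD of 0.41 over CTL libraries. It was −0.07 to 0.34 with 1 library left out, and turned to −0.07 without CTL replicate 2. It was 0.99 as a mean of log2 CPM, where Hapln2 and Bcas1 weigh as much as Ermn, and 0.09 without those genes. Of 301 list genes, 147 had too few counts to test, and 141 of these 147 have several RefSeq transcripts.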

Other observations

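As a measure of likeness, log2 CPM of all tested genes was correlated with that of Ermn and of Cspg4 over the 9 libraries. These fall into 3 groups, so a gene that differs between the labels can correlate with both, though not always closely. Among the members, Olig2 had r = 0.53 and Bcas1 r = −0.42 with Ermn. Nearest to Ermn were Slc25a1, the mitochondrial citrate carrier gene, Rgs5, a pericyte gene that rose by a log2 fold of 0.82, and Baz1b, a chromatin remodelling gene. Nearest to Cspg4 were Smad7, a feedback inhibitor gene of TGF-beta signalling that rose by 0.99, Stk32b and Ranbp3l. None of these 6 genes is an oligodendrocyte marker of the lists, and the likeness is a description of these libraries.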
